A study of Caenorhabditis elegans with 24 samples.

Results

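The nuclear pore and nuclear transport genes of *C. elegans* described here are all genes whose name in the WBcel235 annotation begins with *npp-*, *imb-*, *ima-*, *ran-* or *xpo-*. They number 40 of the 46756 genes counted, with 26 *npp*, 3 *imb*, 3 *ima*, 5 *ran* and 3 *xpo* genes, and all 40 were among the 13482 genes that averaged at least 10 counts over the libraries and were tested. The average of *npp-26* was only 10.8 counts, so its values carry little weight, and the next lowest, *npp-25*, averaged 149.0 counts.

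Nuclear pores are large protein channels through the nuclear envelope, built from nucleoporins that form rings, a central channel of phenylalanine-glycine (FG) repeat proteins, a nuclear basket and filaments on the cytoplasmic face. Importins carry cargo into the nucleus and exportins carry cargo out, and the small GTPase Ran, kept in its GTP form inside the nucleus and its GDP form outside, gives the traffic its direction. XPO-1, the *C. elegans* exportin for cargo with leucine-rich export signals, exports HLH-30, the worm counterpart of the transcription factor TFEB.

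RNA was taken from whole animals at adult day 1 that had spent 3 h either at 37°C (heat stress) or at 20°C (control conditions) on *E. coli* OP50. The 3 genotypes were neuronal HLH-30/TFEB rescued animals, which are *hlh-30(tm1978)* mutants in which the *rab-3* promoter and 3′UTR limit an *hlh-30::GFP* transgene to neurons, *hlh-30(tm1978)* mutants, and wildtype N2 (Bristol) animals, each a single strain (LRL147, LRL31 and N2 in the labels). The labels list 4 replicates for each of the 6 groups, which the methods describe as independent, each a pool of many animals, and the p-values measure the spread between their libraries. In whole animals, fewer cells of a type and less RNA per cell cannot be told apart.

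The 23 libraries used held 11207383 to 28091186 counts, with a median of 13971947. Wildtype animals have 3 libraries at 20°C, since the table labelled replicate 1 of that group repeats, in each of its 46756 values, replicate 4 at 37°C and was not used. Above 20000000 counts were 6 libraries, of which 3 were wildtype at 37°C. The *hlh-30* gene was counted at 24.4 to 50.9 CPM (counts relative to library size, scaled by edgeR's TMM method) in rescued animals at 37°C and 57.4 to 117.1 CPM at 20°C, at 4.19 to 7.88 and 8.13 to 16.01 CPM in mutants, and at 15.5 to 20.5 and 39.9 to 73.8 CPM in wildtype animals. Single libraries stood at the low or the high end of their group over most of the 40 genes. Replicate 4 of rescued animals at 20°C was the lowest of its group for 35 genes, replicate 3 of mutants at 20°C for 33 and at 37°C for 27, and replicate 3 of wildtype animals at 37°C for 28. Highest of their group were replicate 1 of rescued animals at 20°C for 33 genes, replicate 2 of wildtype animals at 20°C for 30 and replicate 4 of mutants at 37°C for 23.

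Transcript levels per length spanned a wide range among the 40 genes. Averaged over the 6 groups, *ran-1*, which encodes Ran itself, was highest at 735 CPM per kilobase of exon. It was followed by *ran-4*, the counterpart of the Ran importer NTF2, at 268.5 CPM per kilobase, and by the importin alpha genes *ima-2* and *ima-1* at 213 and 198 CPM per kilobase, but the order of these 3 changed between groups. *ima-2* was above *ran-4* in rescued animals at 37°C (260.3 against 216 CPM per kilobase) and in wildtype animals at 37°C (315 against 293), and *ima-1* was above *ima-2* at 20°C in mutants (262 against 143) and in wildtype animals (193 against 115.1). The median of the 40 genes was 37.0 CPM per kilobase, and 31 lay between 10 and 100. The third importin alpha gene, *ima-3*, was at 34.7 CPM per kilobase and *xpo-1* at 32.7, and *npp-26* was lowest at 0.466 CPM per kilobase. The genes lie on chromosomes I (13 genes), II, III and IV (8 genes each) and V (3 genes). Near neighbours on 1 strand were *npp-15* and *ran-2* (479 bases apart on chromosome III), *imb-3* and *xpo-2* (3559 bases apart on chromosome I) and *npp-27* and *xpo-3* (6441 bases apart on chromosome IV).

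To ask how heat stress bears on this machinery, libraries at 37°C were compared with libraries at 20°C within each genotype. In mutants and wildtype animals genes of every layer of the pore and of the transport cycle rose, among them *npp-9*, *ima-2*, *xpo-2*, *imb-3* and *npp-10*, and *ima-3* fell in every genotype. In rescued animals 4 of the 40 genes were higher at 37°C and 1 was lower, beside 11.7% and 8.72% of all genes tested. In mutants there were 16 higher and 4 lower, beside 21.3% and 16.8% of all genes. In wildtype animals 15 rose and 3 fell, beside 15% and 17.1% of all genes. The share that was higher was thus 10% of the 40 genes in rescued animals, close to that of all genes in this fit. It was 40% in mutants and 37.5% in wildtype animals. The share that was lower, 2.5%, 10% and 7.5%, was below that of all genes in each genotype. These are calls of edgeR's quasi-likelihood test at a Benjamini-Hochberg adjusted p under 0.05 over all 13482 genes. The median log2 fold change of the 40 genes was 0.09 in rescued animals, 0.25 in mutants and 0.24 in wildtype animals, and that of all genes tested was 0.01, 0.04 and 0.01 in the same order. The heated libraries lay wholly above the control libraries for 2 of the 40 genes in rescued animals and wholly below for 2, beside 11.9% and 12.6% of all genes. The counts were 14 above and 4 below in mutants, beside 20.7% and 15.3%, and 16 above and 4 below in wildtype animals, beside 20.2% and 20.6%.

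**Figure D1:**
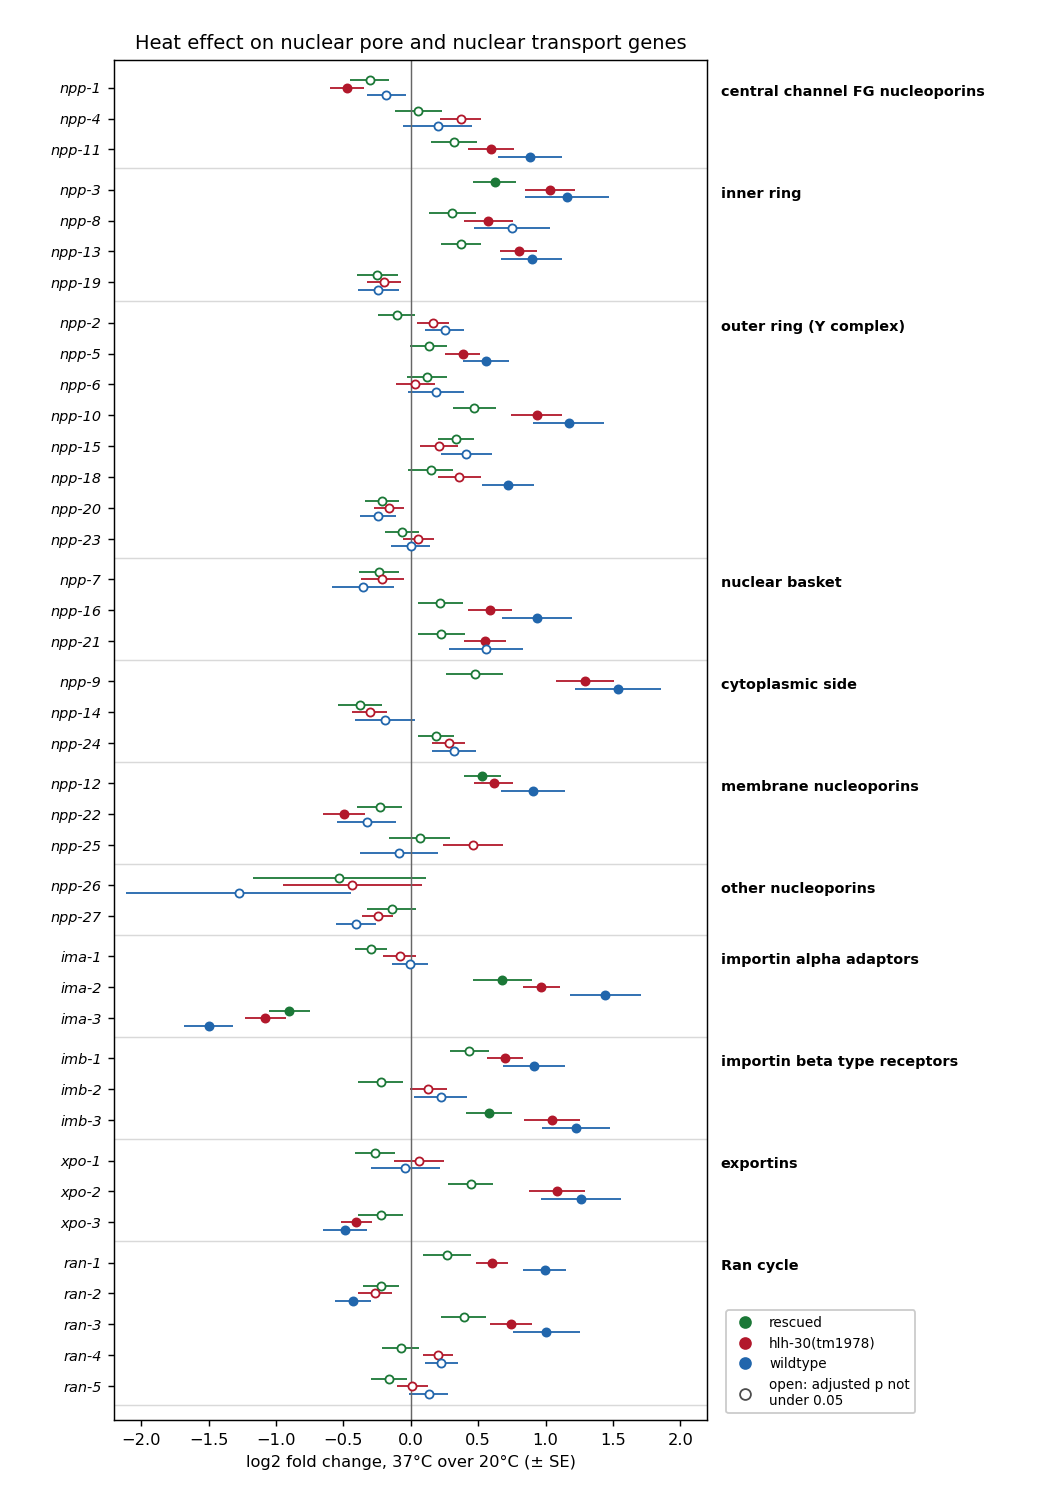
Log2 fold change of 37°C over 20°C (x axis, bars are standard errors) for each of the 40 genes, grouped by role, in rescued animals (green), *hlh-30(tm1978)* mutants (red) and wildtype animals (blue). Filled points have an adjusted p under 0.05 and open points do not: *ima-3* lies far to the left in every genotype, and *npp-9*, *ima-2*, *xpo-2* and *imb-3* lie farthest to the right in wildtype animals.

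The calls overlapped between genotypes. *npp-3*, *npp-12*, *ima-2* and *imb-3* were higher with heat in all 3 genotypes and *ima-3* was lower in all 3. A further 10 genes were higher in both mutants and wildtype animals, *npp-5*, *npp-9*, *npp-10*, *npp-11*, *npp-13*, *npp-16*, *imb-1*, *xpo-2*, *ran-1* and *ran-3*, and *xpo-3* was lower in both. *npp-18* passed the test for a rise in wildtype animals alone, and *npp-8* and *npp-21* in mutants alone, while *ran-2* passed for a fall in wildtype animals, and *npp-1* and *npp-22* in mutants. The other 18 genes passed in no genotype: *npp-2*, *npp-4*, *npp-6*, *npp-7*, *npp-14*, *npp-15*, *npp-19*, *npp-20*, *npp-23*, *npp-24*, *npp-25*, *npp-26*, *npp-27*, *ima-1*, *imb-2*, *xpo-1*, *ran-4* and *ran-5*. Across the 40 genes, heat log2 fold changes of rescued animals and mutants correlated with r = 0.94, of rescued and wildtype animals with r = 0.94, and of mutants and wildtype animals with r = 0.95. This is a description across genes, which are not independent, in libraries that no 2 of these comparisons share, and over all genes tested r was 0.85, 0.77 and 0.92.

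Some of these counts rested on few libraries. In wildtype animals 6 genes were higher without replicate 3 at 20°C and 7 when the fit held the depth class of each library. All genes lost calls in the same fits, to 9.96% and 5.96% higher, against 15% and 17.5% of the 40 genes. With the depth class held, the heat effect in wildtype animals rests on replicate 1 at 37°C alone. The other heated wildtype libraries were above 20000000 counts and no wildtype library at 20°C was, so heat and depth cannot be told apart there. Leaving out any library but wildtype replicate 4 at 20°C left 1 gene lower instead of 3, beside 12.3% to 15.3% of all genes. In mutants, 2 genes instead of 4 were lower without mutant replicate 2 at 20°C, beside 14.4% of all genes. In rescued animals, 12 genes were higher without replicate 1 at 20°C, which is 30% of the 40 beside 10.7% of all genes. How the rescued share stands to that of all genes thus depends on this library, and on the processing too. With every library kept, it was above that of all genes with upper quartile scaling, without a filter on low counts or with the replicate number as a block. It was below when scaled by library size alone, with the depth class held or in a fit of all groups. A single gene, or 2.5%, was higher without replicate 2 or 3 at 20°C or replicate 2 or 3 at 37°C, beside 8.06% to 9.63% of all genes. There were 2 without replicate 1 at 37°C, beside 10.9% of all genes, and 4 genes were lower without replicate 4 at 20°C, beside 10.4%. Scaled by library size alone, rescued animals had 1 gene higher and 2 lower, mutants 11 and 7, and wildtype animals 14 and 4. This moved the median of all genes to -0.075, -0.11 and -0.10 in the same order, and the split of all genes in mutants to 2154 higher and 3139 lower, instead of 2870 and 2268.

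Markers of the germline and of the intestine moved with heat too. Of 12 germline and oocyte genes, 3 were higher at 37°C in rescued animals, mutants had 7 higher and 1 lower, 6 were higher in wildtype animals, and none was at 0 in any library. Their summed level ran over 3439 to 5324 CPM at 37°C and 1994 to 4236 CPM at 20°C in rescued animals, over 3792 to 6029 and 2303 to 3015 CPM in mutants, and over 4777 to 8299 and 1852 to 3783 CPM in wildtype animals. Of 6 intestinal genes, among them the yolk protein gene *vit-2*, 3 were lower with heat in rescued animals and all 6 in mutants and in wildtype animals. Their summed level ran over 12430 to 17170 CPM at 37°C and 25840 to 86390 CPM at 20°C in rescued animals, over 2721 to 11160 and 29480 to 74070 CPM in mutants, and over 4560 to 8089 and 47950 to 102100 CPM in wildtype animals. Most of this sum came from the yolk protein genes *vit-2* and *vit-6*, with up to 828043 and 837225 counts in a library. No other intestinal gene on the list was above 18002 counts. Of 6 neuronal genes, 3 were lower in rescued animals, and 1 was higher and 1 lower in each of the other genotypes, with *rab-3*, whose 3′UTR the transgene carries, on this list. Of 5 muscle genes, 1 was higher in rescued animals, 1 in mutants and 0 in wildtype animals, and of 3 sperm genes tested 1 was higher in each genotype. The part of these shifts in the levels of the nuclear pore and transport genes was not tested.

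Among nucleoporins past the test, the largest heat effect in mutants and wildtype animals was that of *npp-9* (WBGene00003795, chromosome III, 3400638 to 3404479, minus strand), which encodes the counterpart of vertebrate RanBP2, the main protein of the cytoplasmic filaments. It was counted at 330.5, 395, 306 and 252 CPM in rescued animals at 37°C, against 332, 222, 236 and 155 CPM at 20°C. In mutants it stood at 475, 356, 258 and 488 CPM at 37°C, against 162, 185, 109.9 and 187 CPM at 20°C. In wildtype animals it stood at 684, 659, 398 and 352 CPM at 37°C, against 242, 164 and 133 CPM at 20°C. The groups did not overlap in mutants and wildtype animals, and did in rescued animals, whose replicate 1 at 20°C was above replicates 1, 3 and 4 at 37°C. The log2 fold change was 0.47 ± 0.21 (SE) in rescued animals (adjusted p = 0.133), 1.29 ± 0.22 in mutants (adjusted p = 0.00062) and 1.54 ± 0.32 in wildtype animals (adjusted p = 0.00739, edgeR). The wildtype libraries at 37°C formed a high and a low pair, and the same libraries were high and low in the summed germline markers, at 8299, 8037, 5235 and 4777 CPM.

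Inner ring nucleoporins, which anchor the ring scaffold, were higher with heat for 1 of 4 genes in rescued animals, 3 of 4 in mutants and 2 of 4 in wildtype animals. *npp-3*, the counterpart of vertebrate Nup205, was at 125, 132, 134 and 97.8 CPM in rescued animals at 37°C, against 103, 80.7, 78.2 and 64.4 CPM at 20°C. It was at 164, 117, 93.4 and 157 CPM in mutants at 37°C, against 69.0, 66.6, 50.4 and 73.7 CPM at 20°C. It was at 229, 231, 123 and 114 CPM in wildtype animals at 37°C, against 90.3, 59.1 and 84.8 CPM at 20°C. Only in rescued animals did a library at 37°C, replicate 4, fall below one at 20°C, replicate 1. The log2 fold changes were 0.62 ± 0.16, 1.03 ± 0.18 and 1.16 ± 0.31 in rescued animals, mutants and wildtype animals, with edgeR adjusted p = 0.0165, 0.000941 and 0.0219. The call was lost under 6 of 17 alternatives in rescued animals, with an adjusted p of up to 0.0678, and under 3 of 16 in wildtype animals, with up to 0.076. *npp-13*, the counterpart of Nup93, had log2 fold changes of 0.37, 0.80 and 0.90 in that order, and *npp-8*, the counterpart of Nup155, of 0.31, 0.57 and 0.75. *npp-19*, which encodes the small ring protein of the same set, had values of -0.25, -0.20 and -0.24 and passed the test in no genotype.

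The outer ring, or Y complex, holds 8 of the genes, of which none was called with heat in rescued animals, 2 were higher in mutants and 3 in wildtype animals. *npp-10*, whose product is cut into a channel protein and a Y complex protein (Nup98 and Nup96 in vertebrates), was at 209, 209, 187 and 159.8 CPM in rescued animals at 37°C, against 181, 136, 137 and 112 CPM at 20°C. It was at 284, 206, 163 and 274 CPM in mutants at 37°C, against 139, 125, 88.0 and 133 CPM at 20°C. It was at 368, 360.5, 214 and 209.8 CPM in wildtype animals at 37°C, against 148, 106 and 128 CPM at 20°C. The heated and control libraries of mutants and wildtype animals were fully apart. Log2 fold changes were 0.47 ± 0.16 (adjusted p = 0.0515), 0.93 ± 0.19 (adjusted p = 0.00231) and 1.17 ± 0.26 (adjusted p = 0.0104, edgeR) in rescued animals, mutants and wildtype animals. *npp-5*, the counterpart of Nup107, had smaller effects of 0.13, 0.38 and 0.56, and *npp-18*, the counterpart of Seh1, of 0.15, 0.36 and 0.72. The largest absolute log2 fold change of the other 5 outer ring genes, *npp-2*, *npp-6*, *npp-15*, *npp-20* and *npp-23*, was 0.41, for *npp-15* in wildtype animals. *npp-20*, which encodes a Sec13 protein that also serves in vesicle coats, had values of -0.21, -0.16 and -0.24.

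Among the membrane nucleoporins, *npp-12*, the counterpart of gp210, was the gene whose heated and control libraries were apart in all 3 genotypes. It was at 183, 172, 202 and 169 CPM in rescued animals at 37°C, against 137, 138, 140.3 and 102 CPM at 20°C. It was at 188, 169.7, 135 and 207 CPM in mutants at 37°C, against 129, 119, 96.5 and 113 CPM at 20°C. It was at 224, 234, 135 and 141 CPM in wildtype animals at 37°C, against 105, 89.5 and 98.6 CPM at 20°C. At 37°C the ranges of the 3 genotypes overlapped. The log2 fold changes were 0.53 ± 0.14, 0.62 ± 0.14 and 0.91 ± 0.24, with edgeR adjusted p = 0.016, 0.00519 and 0.0196 in rescued animals, mutants and wildtype animals. *npp-22*, the counterpart of the membrane anchor NDC1, was lower with heat in mutants by the test (log2 fold change -0.49 ± 0.16, adjusted p = 0.0258 by edgeR) and stood at -0.23 in rescued animals and -0.33 in wildtype animals.

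**Figure D2:**
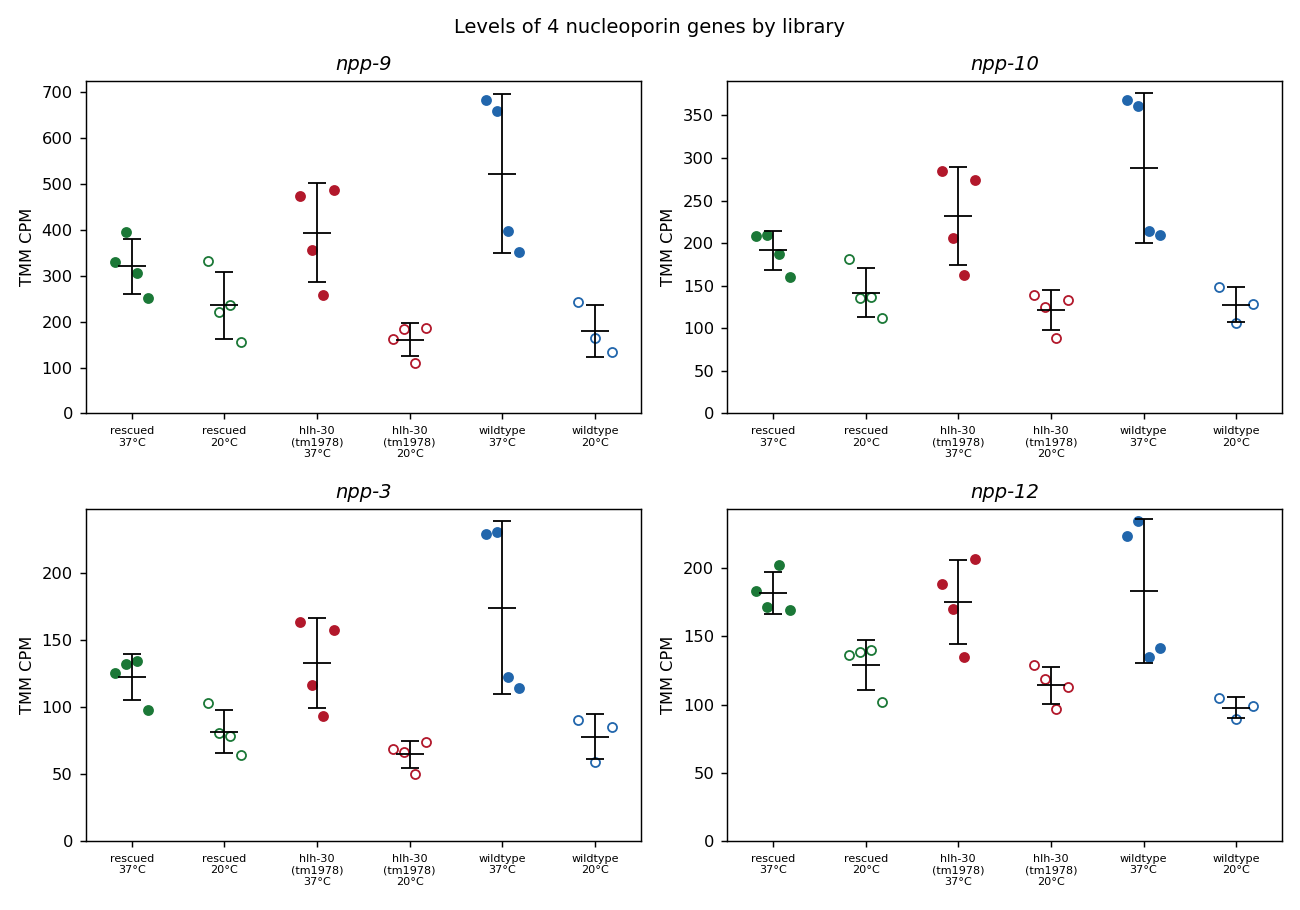
Levels of *npp-9*, *npp-10*, *npp-3* and *npp-12* in TMM CPM (y axis, from 0) in each library of the 6 groups, with the mean and SD as black bars, filled points at 37°C and open points at 20°C. In wildtype animals at 37°C the libraries form a high and a low pair for all 4 genes, both above every wildtype library at 20°C.

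Of the FG repeat proteins of the central channel, *npp-11*, the counterpart of Nup62, was higher with heat in mutants and wildtype animals, with log2 fold changes of 0.60 ± 0.17 (adjusted p = 0.0157) and 0.88 ± 0.24 (adjusted p = 0.0216, edgeR), and stood at 0.32 ± 0.17 in rescued animals. Of its partners in the same trimer, *npp-1* and *npp-4*, neither passed the test for a rise. *npp-1* was at -0.30, -0.48 and -0.18 in rescued animals, mutants and wildtype animals and passed for a fall in mutants (edgeR adjusted p = 0.0104), and *npp-4* was at 0.06, 0.37 and 0.20. In the nuclear basket, *npp-16*, the counterpart of Nup50, was at 0.22, 0.59 and 0.93, *npp-21*, the counterpart of TPR, at 0.23, 0.55 and 0.56, and *npp-7*, the counterpart of Nup153, at -0.23, -0.21 and -0.35. On the cytoplasmic side, *npp-14*, the counterpart of Nup214, was at -0.38, -0.30 and -0.19 and its partner *npp-24*, the counterpart of Nup88, at 0.19, 0.28 and 0.32, and neither passed the test. Of the rest, *npp-25*, the counterpart of the membrane protein TMEM33, was at 0.07, 0.46 and -0.09, *npp-27* at -0.14, -0.25 and -0.41, and the scarce *npp-26* at -0.53 ± 0.64, -0.43 ± 0.51 and -1.28 ± 0.83, without passing the test. Genes of 1 subcomplex were thus not all called together, and differences between genes were not tested. Of the 26 nucleoporin genes, 2 were higher with heat in rescued animals, 10 higher and 2 lower in mutants, and 9 higher in wildtype animals.

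The importin alpha adaptors, which bind nuclear localization signals in cargo, did not move together: *ima-2* rose and *ima-3* fell. *ima-2* (WBGene00002073, chromosome I, 6315233 to 6317262, plus strand) was at 509, 575, 379 and 420 CPM in rescued animals at 37°C, against 389, 296, 341 and 176 CPM at 20°C. It was at 554, 520.3, 425 and 523 CPM in mutants at 37°C, against 304, 277, 229.9 and 223 CPM at 20°C. It was at 666, 642, 509.7 and 459.9 CPM in wildtype animals at 37°C, against 280.2, 204 and 139.8 CPM at 20°C. The groups were apart in mutants and wildtype animals, and in rescued animals replicate 3 at 37°C was below replicate 1 at 20°C. The log2 fold change was 0.68 ± 0.22 in rescued animals (adjusted p = 0.044), 0.97 ± 0.14 in mutants (adjusted p = 0.000195) and 1.45 ± 0.26 in wildtype animals (adjusted p = 0.00414, edgeR). The rescued call was lost under 10 of 17 alternatives, with an adjusted p of up to 0.125 by edgeR or DESeq2.

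*ima-3* (WBGene00002074, chromosome IV, 7558726 to 7561664, minus strand) was the only one of the 40 genes that passed the test for a fall at 37°C in every genotype. It was at 85.2, 56.8, 68.6 and 66.3 CPM in rescued animals at 37°C, against 153, 128, 136 and 114 CPM at 20°C. It was at 44.5, 47.5, 47.5 and 57.5 CPM in mutants at 37°C, against 94.6, 112, 81.5 and 128 CPM at 20°C. It was at 54.6, 53.5, 39.2 and 50.6 CPM in wildtype animals at 37°C, against 153, 110.1 and 155 CPM at 20°C. Every heated library was below every control library of its genotype. The log2 fold change was -0.90 ± 0.15 in rescued animals (adjusted p = 0.00121), -1.08 ± 0.15 in mutants (adjusted p = 0.000201) and -1.50 ± 0.18 in wildtype animals (adjusted p = 0.000643, edgeR), and the call held under every alternative computed in all 3 genotypes. *ima-3* shares 34 of its exon bases with *nprl-2* on the opposite strand, a gene with about as many counts, and how the counting treated strand is not given in the sources used here.

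The third adaptor, *ima-1*, did not pass the test for heat in any genotype, with log2 fold changes of -0.29 ± 0.12, -0.08 ± 0.12 and -0.00 ± 0.13 in rescued animals, mutants and wildtype animals. In *C. elegans*, *ima-1* and *ima-2* are known for germline expression and *ima-3* for expression in the soma as well. The makeup of importin alpha transcripts per length shifted as a whole. The share of *ima-3* was 6.46 ± 1.37% at 37°C and 13.5 ± 0.746% at 20°C in rescued animals (SD, n = 4 each), 3.46 ± 0.429% and 8.97 ± 1.93% in mutants (SD, n = 4 each), and 3.58 ± 0.367% (n = 4) and 14.9 ± 3.49% (n = 3) in wildtype animals. There were 10.1 *ima-2* transcripts per *ima-3* transcript at 37°C and 3.22 at 20°C in rescued animals, 14.98 and 3.71 in mutants, and 16.7 and 2.21 in wildtype animals. This ratio is taken within a library and does not depend on the scaling between libraries, and its ranges at 37°C and 20°C did not overlap in any genotype, at 7.99 to 14.6 and 2.23 to 3.68 in rescued animals, 12.9 to 18.02 and 2.52 to 4.64 in mutants, and 13.1 to 18.8 and 1.30 to 2.68 in wildtype animals.

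**Figure D3:**
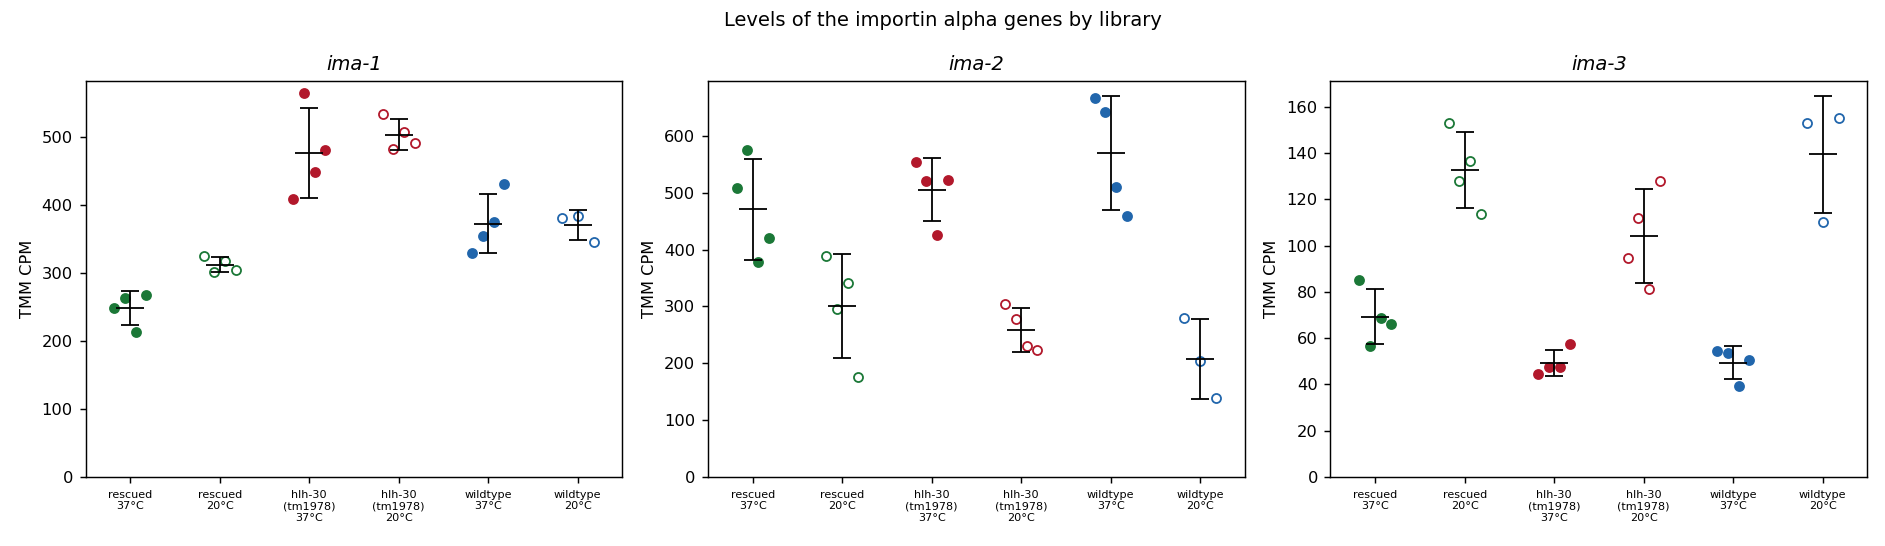
Levels of *ima-1*, *ima-2* and *ima-3* in TMM CPM (y axis, from 0) in each library of the 6 groups, with the mean and SD as black bars, filled points at 37°C and open points at 20°C. *ima-2* is on average higher and *ima-3* lower at 37°C within each genotype, and *ima-1* is lowest in rescued animals at both temperatures.

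Of the importin beta type receptors, which carry cargo or the importin alpha complex through the channel, *imb-3* passed the test for a rise with heat in every genotype. It was at 429, 493, 426 and 330.2 CPM in rescued animals at 37°C, against 367, 272, 278 and 233 CPM at 20°C. It was at 577, 384, 308 and 557 CPM in mutants at 37°C, against 228, 232, 162 and 264 CPM at 20°C. It was at 743, 722, 509.8 and 429 CPM in wildtype animals at 37°C, against 314, 229 and 225 CPM at 20°C. Only in rescued animals did the groups overlap. The log2 fold changes were 0.58 ± 0.17, 1.04 ± 0.21 and 1.23 ± 0.25, with edgeR adjusted p = 0.0281, 0.00197 and 0.00658 in rescued animals, mutants and wildtype animals. The rescued call was lost under 9 of 17 alternatives, with an adjusted p of up to 0.0875. *imb-1*, the importin beta that pairs with importin alpha, had values of 0.43 ± 0.15, 0.70 ± 0.13 and 0.92 ± 0.23 and passed in mutants (adjusted p = 0.00156) and wildtype animals (adjusted p = 0.0165, edgeR). *imb-2*, the transportin counterpart, stood at -0.22, 0.13 and 0.22 and passed in no genotype.

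The 3 exportins each behaved differently under heat. *xpo-1* (WBGene00002078, chromosome V, 7805064 to 7814656, plus strand) was at 145, 105, 139 and 112 CPM in rescued animals at 37°C, against 179, 152, 157 and 131 CPM at 20°C. It was at 126, 116, 111 and 156 CPM in mutants at 37°C, against 104, 136, 85.2 and 162 CPM at 20°C. It was at 199, 204, 112 and 143 CPM in wildtype animals at 37°C, against 168, 127 and 212 CPM at 20°C. Heated and control libraries overlapped in every genotype. The log2 fold change was -0.26 ± 0.15 in rescued animals (adjusted p = 0.233), 0.06 ± 0.19 in mutants (adjusted p = 0.82) and -0.04 ± 0.26 in wildtype animals (adjusted p = 0.918, edgeR), so no change larger than the spread between libraries was seen for the receptor that exports HLH-30. A 2-sided exact permutation test of log2 CPM gave p = 0.114 in rescued animals (n = 4 and 4), p = 0.714 in mutants (n = 4 and 4) and p = 0.971 in wildtype animals (n = 4 and 3), where the smallest p the design allows is 0.0571. A heat effect of *xpo-1* that differed between genotypes was not detected either, with interaction log2 values of -0.37 ± 0.29 for rescued animals against mutants, -0.26 ± 0.30 for rescued against wildtype animals and 0.10 ± 0.30 for mutants against wildtype animals. In the pairwise comparisons of genotypes it passed no test, and its lowest adjusted p was 0.1 at a log2 fold change of -0.46 ± 0.21 in rescued against wildtype animals at 37°C.

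*xpo-2* encodes the counterpart of CAS, which returns importin alpha to the cytoplasm. It was at 102, 114, 107 and 85.0 CPM in rescued animals at 37°C, against 100.5, 73.0, 74.2 and 59.4 CPM at 20°C. It was at 167, 106, 93.6 and 129.9 CPM in mutants at 37°C, against 59.0, 67.1, 38.6 and 69.7 CPM at 20°C. It was at 232, 219, 124 and 126 CPM in wildtype animals at 37°C, against 94.9, 62.5 and 60.8 CPM at 20°C. The groups were apart in mutants and wildtype animals and overlapped in rescued animals, and the log2 fold change was 0.45 ± 0.17 in rescued animals (adjusted p = 0.0764), 1.08 ± 0.21 in mutants (adjusted p = 0.00166) and 1.26 ± 0.30 in wildtype animals (adjusted p = 0.0131, edgeR). *xpo-3*, the counterpart of the tRNA exporter exportin-t, went the other way, with log2 fold changes of -0.22 ± 0.17 (adjusted p = 0.384), -0.40 ± 0.11 (adjusted p = 0.0141) and -0.49 ± 0.16 (adjusted p = 0.0486, edgeR) in the same order. Its level was 48.2, 51.9, 46.8 and 55.1 CPM in mutants at 37°C, against 68.4, 71.9, 60.4 and 66.7 CPM at 20°C, and 42.3, 44.3, 36.9 and 46.5 CPM in wildtype animals at 37°C, against 69.8, 55.7 and 52.2 CPM at 20°C. Both pairs of groups were apart, but the wildtype call was lost under 11 of 16 alternatives, with an adjusted p of up to 0.347 by edgeR or DESeq2.

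**Figure D4:**
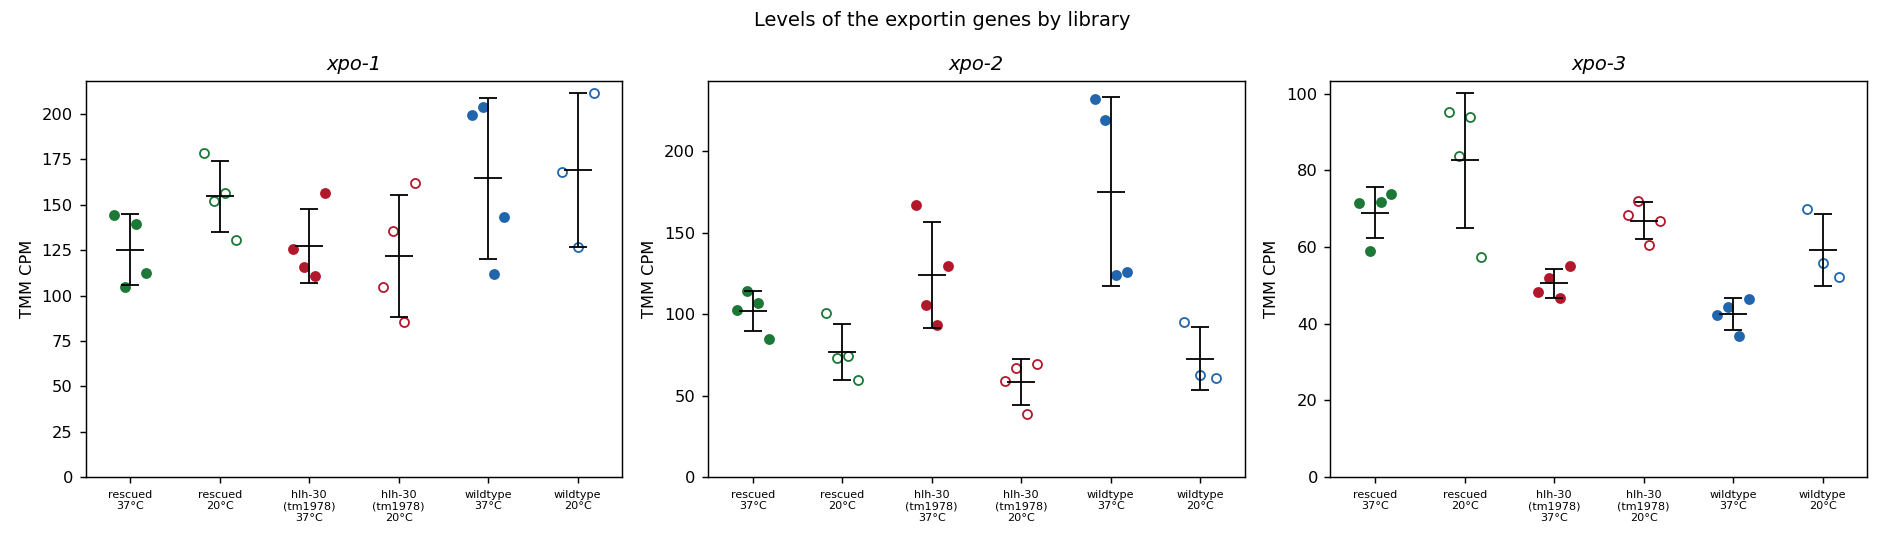
Levels of *xpo-1*, *xpo-2* and *xpo-3* in TMM CPM (y axis, from 0) in each library of the 6 groups, with the mean and SD as black bars, filled points at 37°C and open points at 20°C. Heated and control libraries overlap for *xpo-1*, those of mutants and wildtype animals are apart in opposite directions for *xpo-2* and *xpo-3*, and *xpo-3* at 37°C is highest in rescued animals.

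In the Ran cycle, *ran-1* and *ran-3*, the counterpart of the nucleotide exchange factor RCC1 that loads Ran with GTP, were higher with heat in mutants and wildtype animals. *ran-1* was at 719.9, 839.7, 529 and 690.3 CPM in rescued animals at 37°C, against 695, 592, 645 and 426 CPM at 20°C. It was at 911, 982, 874 and 855 CPM in mutants at 37°C, against 676, 601, 586 and 521 CPM at 20°C. It was at 1046, 999.6, 923 and 883 CPM in wildtype animals at 37°C, against 542, 486 and 414 CPM at 20°C. Groups were apart in mutants and wildtype animals, while rescued replicate 3 at 37°C was below 3 of the 4 control libraries. The log2 fold changes were 0.27 ± 0.18 (adjusted p = 0.319), 0.60 ± 0.12 (adjusted p = 0.00182) and 0.99 ± 0.16 (adjusted p = 0.00224, edgeR) in rescued animals, mutants and wildtype animals. *ran-1* shares 9.91% of its length with *rib-2* on the opposite strand, a gene with far fewer counts. *ran-3* had log2 fold changes of 0.39, 0.74 and 1.01. *ran-2*, the counterpart of RanGAP, which lets Ran hydrolyse GTP in the cytoplasm, had values of -0.22, -0.26 and -0.43 and passed for a fall in wildtype animals (edgeR adjusted p = 0.0375), a call lost under 10 of 16 alternatives with an adjusted p of up to 0.372. *ran-4* and *ran-5*, a Ran-binding protein, had values between -0.16 and 0.23 and passed in no genotype.

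The heat effect was smallest in rescued animals for each of the genes that rose in wildtype animals. Over the 15 genes higher with heat in wildtype animals, the median log2 fold change was 0.43 in rescued animals, 0.74 in mutants and 0.99 in wildtype animals, and all 15 ranked in that order. The wildtype values chose these 15 genes, so the order is a description and no test. The difference between genotypes itself was tested as a heat by genotype interaction in a model of the 6 groups, and no gene of the 40 passed it. Over all genes tested, 0.0445% passed for rescued animals against mutants, 3.07% for rescued against wildtype animals and 0% for mutants against wildtype animals, and DESeq2's Wald test called 0, 1 and 0 of the 40 genes. At an unadjusted p under 0.05 there were 2, 16 and 0 of the 40 genes, or 5%, 40% and 0%, beside 9.65%, 23.4% and 4.34% of all genes. For rescued against wildtype animals, 15 of these 16 had a negative interaction, and over all genes 1462 of 3149 did. The closest was *ran-1* for rescued against wildtype animals, with an interaction of -0.77 ± 0.22 on the log2 scale (adjusted p = 0.053 by edgeR), followed by *npp-9* with -1.10 ± 0.39 (adjusted p = 0.109). For rescued against wildtype animals 5 genes passed without rescued replicate 4 at 20°C (11.2% of all genes), 2 without wildtype replicate 2 at 20°C (5.53%) and 1 without rescued replicate 2 at 37°C (3.05%).

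Next, the genotypes were compared at each temperature to ask whether loss of *hlh-30* or its return to neurons bears on the same genes. At 20°C, mutants differed from wildtype animals in none of the 40 genes by edgeR, beside 0.734% of all genes, and in 1 by DESeq2's Wald test. At an unadjusted p under 0.05 there were 5, or 12.5%, below the 16.8% of all genes. Rescued animals differed from mutants in 3, all lower, beside 10.1% of all genes higher and 13.1% lower, and from wildtype animals in none by edgeR, beside 12.9% of all genes, or by DESeq2's Wald test. Against wildtype animals there were 7 genes at an unadjusted p under 0.05, or 17.5%, below the 29.9% of all genes. The 3 genes lower than in mutants were *ima-1*, *npp-23* and *ran-4*. Rescued libraries were all below mutant ones for 3 genes and all above for 0 (12.7% and 15.5% of all genes), all above or all below wildtype ones for 1 gene each (12.5% and 13.6%), and mutant libraries were all above wildtype ones for 3 genes and all below for 1 (7.48% and 8.07%). Without rescued replicate 4 at 20°C, 6 genes differed from mutants and 6 from wildtype animals, beside 26.9% and 17.5% of all genes, and without mutant replicate 3 at 20°C, 5 differed between rescued animals and mutants, beside 22.5%. *ima-1* was at 325, 301, 317 and 304 CPM in rescued animals, 533, 482, 507 and 491 CPM in mutants and 381, 384 and 345 CPM in wildtype animals. Rescued libraries were below those of both other genotypes, and mutant libraries above wildtype ones. The log2 fold change of rescued animals was -0.77 ± 0.09 against mutants (adjusted p = 0.000202) and -0.28 ± 0.10 against wildtype animals (adjusted p = 0.101, edgeR), and that of mutants against wildtype animals was 0.46 ± 0.11 (adjusted p = 0.129). *npp-23*, the counterpart of the Y complex protein Nup43, was at 142, 123, 136 and 115.1 CPM in rescued animals, 202, 185, 174 and 166 CPM in mutants and 164, 177 and 126 CPM in wildtype animals, and the log2 fold change of rescued animals against mutants was -0.58 ± 0.10 (adjusted p = 0.00284, edgeR). *ran-4* differed by -0.39 ± 0.10 on the log2 scale (adjusted p = 0.0182, edgeR).

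At 37°C, mutants again differed from wildtype animals in none of the 40 genes by edgeR, beside 0.764% of all genes, or by DESeq2's Wald test. At an unadjusted p under 0.05 there were 7, or 17.5%, close to the 18.3% of all genes. Rescued animals differed from mutants in 9 genes, 2 higher and 7 lower, beside 16.5% of all genes higher and 20.3% lower. The genes with the largest changes were *ima-1* (log2 fold change -1.01 ± 0.14, adjusted p = 0.00022 by edgeR), *npp-23* (-0.72 ± 0.13), *ran-4* (-0.69 ± 0.15), *npp-11* (-0.48 ± 0.15) and *ran-1* (-0.45 ± 0.15). The others lower were *npp-1* and *npp-18*, and *ima-3* (0.42 ± 0.15) and *xpo-3* (0.38 ± 0.12) were higher. The *npp-1* call was lost under 16 of 17 alternatives and the *npp-18* call under 15, with an adjusted p of up to 0.316 and 0.249 by edgeR or DESeq2. Those of *ran-1* and *npp-11* were lost under 10 and 8. *ima-1* was at 248, 264, 213 and 268 CPM in rescued animals, 409, 564, 448 and 481 CPM in mutants and 329.5, 355, 374 and 430.5 CPM in wildtype animals. *npp-23* was at 128, 129, 100.3 and 124 CPM in rescued animals, 173, 219, 171 and 194 CPM in mutants and 158, 152, 153 and 164 CPM in wildtype animals. For both genes the rescued libraries were all below those of mutants and wildtype animals. Rescued libraries were all above mutant ones for 1 gene and all below for 6, beside 17.3% and 18.4% of all genes. Scaled by library size alone, 3 genes were higher and 3 lower, and over all genes 3329 and 1916 instead of 2228 and 2737. Only 3 of the 9 calls held under every alternative, *ima-1*, *npp-23* and *ran-4*. The count was 3 without rescued replicate 4 and 5 without mutant replicate 1 or 2 or rescued replicate 1 or 3 at 37°C, beside 27.5% to 36.2% of all genes in these fits. Of the markers, all 6 intestinal genes and 2 of 3 sperm genes tested were higher in rescued animals than in mutants at 37°C. Of the 12 germline and oocyte genes 1 was higher and 1 lower. Of 6 neuronal genes 2 were higher and 1 lower, and of 5 muscle genes 1 was higher. The part of these shifts in the difference was not tested.

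Rescued and wildtype animals differed at 37°C in 17 of the 40 genes, 2 higher and 15 lower, beside 18.2% of all genes higher and 21.9% lower. The lower genes made up 37.5% of the 40, above the share of all genes, and the higher ones 5%, below it. The median log2 fold change was -0.27 over the 40 genes and -0.04 over all genes, and rescued libraries were all above wildtype ones for 4 genes and all below for 10, beside 19.5% and 18.7% of all genes. Scaled by library size alone, 5 were higher and 5 lower, while over all genes the split was 3705 higher and 1931 lower instead of 2453 and 2956, with the median of all genes at 0.19. The 15 lower genes were *npp-1*, *npp-8*, *npp-9*, *npp-10*, *npp-11*, *npp-13*, *npp-16*, *npp-18*, *npp-23*, *ima-1*, *imb-1*, *imb-3*, *xpo-2*, *ran-1* and *ran-4*. This comparison and that of heat in wildtype animals share the 4 wildtype libraries at 37°C, so calls made in both are not independent. The 5 genes with the largest changes were *npp-11* (-0.92 ± 0.19, adjusted p = 0.00338), *npp-18* (-0.86 ± 0.16, adjusted p = 0.0016), *npp-8* (-0.85 ± 0.23, adjusted p = 0.0137), *xpo-2* (-0.85 ± 0.23, adjusted p = 0.012) and *npp-9* (-0.77 ± 0.24, adjusted p = 0.0248, all by edgeR). *npp-18* was at 88.8, 104, 69.4 and 87.9 CPM in rescued animals, 108, 125, 90.7 and 112 CPM in mutants and 174, 162, 129 and 142 CPM in wildtype animals, with no rescued library in the wildtype range. *npp-11* was at 79.8, 92.8, 77.5 and 67.5 CPM in rescued animals, 122, 103, 77.1 and 123 CPM in mutants and 178, 174, 113 and 111 CPM in wildtype animals, again apart.

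Higher in rescued than in wildtype animals at 37°C were *xpo-3* and *ran-2*. *xpo-3* was at 71.5, 59.0, 71.8 and 73.7 CPM in rescued animals, 48.2, 51.9, 46.8 and 55.1 CPM in mutants and 42.3, 44.3, 36.9 and 46.5 CPM in wildtype animals. The rescued libraries were all above those of mutants and wildtype animals, and the log2 fold change was 0.64 ± 0.13 against wildtype animals (adjusted p = 0.00322) and 0.38 ± 0.12 against mutants (adjusted p = 0.0249, edgeR). *ran-2* was at 154, 122, 149 and 146 CPM in rescued animals and 100.3, 104, 82.8 and 97.0 CPM in wildtype animals, also apart, with a log2 fold change of 0.51 ± 0.13 (adjusted p = 0.00974, edgeR). In rescued against wildtype animals at 37°C, 5 of the 12 germline and oocyte markers were lower and none higher in rescued animals. All 6 intestinal markers and 2 of 3 sperm genes tested were higher. Of 6 neuronal genes 2 were higher and 2 lower, and of 5 muscle genes 1 was higher. The part of these shifts in the difference was not tested.

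**Figure D5:**
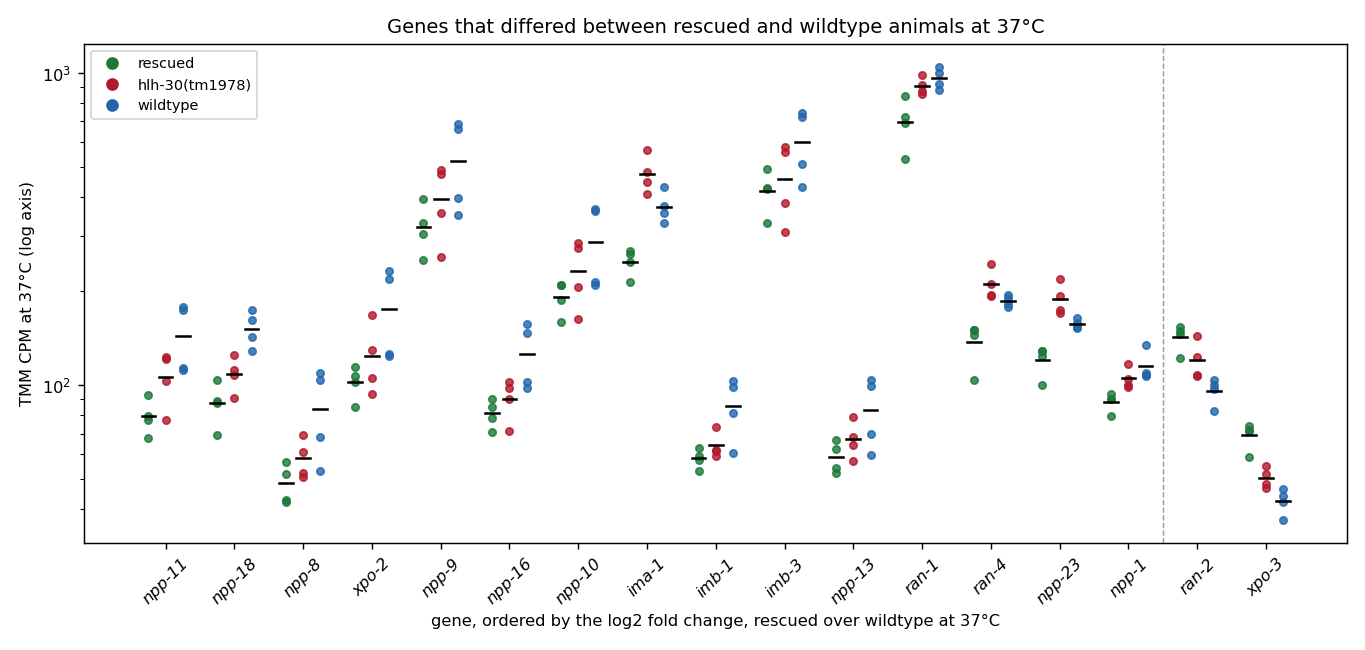
Levels in TMM CPM (y axis, log scale) of the 17 genes that differed between rescued and wildtype animals at 37°C, in each library at 37°C of rescued animals (green), *hlh-30(tm1978)* mutants (red) and wildtype animals (blue), with group means as black bars, ordered by the log2 fold change of rescued over wildtype animals. The 15 genes left of the dashed line are lower in rescued animals, *npp-11* most of all, and *ran-2* and *xpo-3* on the right are higher.

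Genes that work beside the pore were counted from 3 lists. Of 13 genes for mRNA export, 1 was higher and 1 lower with heat in rescued animals, 1 higher and 2 lower with heat among mutants, and 2 higher and 1 lower among wildtype animals. Passing in all 3 genotypes were *hel-1*, an RNA helicase that recruits export factors to mRNA (log2 fold changes 0.45, 0.82 and 0.95), and *thoc-7*, a subunit of the THO complex (-0.39, -0.33 and -0.42). Of 14 genes of the nuclear envelope and its links to the cytoskeleton, rescued animals had 1 higher and 1 lower, mutants had 3 and 5, and wildtype animals had 4 and 4. *lem-2*, which encodes an inner nuclear membrane protein that binds lamin, had log2 fold changes of 1.78 ± 0.18, 2.71 ± 0.27 and 2.78 ± 0.35, larger than that of any of the 40 genes, and the lipin gene *lpin-1* of -0.50 ± 0.16, -1.07 ± 0.16 and -1.78 ± 0.20. Of 9 genes for SUMO conjugation, a modification known to act on RanGAP at the pore in vertebrates, 3 were higher in rescued animals, 3 in mutants, and 2 higher and 1 lower in wildtype animals. Higher in all 3 were *uba-2*, a subunit of the SUMO activating enzyme (0.87, 1.58 and 1.77), and the SUMO ligase gene *gei-17* (0.40, 0.55 and 0.54).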

How the data were processed

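Raw counts per gene, with no normalization, are what the authors deposited. Per the labels and methods, reads went through Trimmomatic, then STAR against WBcel235, then featureCounts of Subread. The strand setting of the counting is not given in the sources used here, and the reads were not analysed here. The labels gave genotype, temperature and replicate number. Gene names came from Ensembl release 115.

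A gene was kept when its counts averaged 10 or more over the 23 libraries. In R 4.3.3, edgeR 4.0.16 (TMM scaling, quasi-likelihood test) was used, and p-values were adjusted by the Benjamini-Hochberg method over all genes kept, with a threshold of 0.05. Heat and genotype pairs were fitted on the libraries compared, and interactions on all 6 groups. Standard errors come from the log2 fold change and the F statistic. *xpo-1* was also tested by exact permutation of log2 CPM (prior count 2) in scipy 1.17.1. Alternatives were DESeq2 1.42.0, other scalings, no filter, 1 fit of all groups, a replicate block, depth class as a covariate, shallower libraries only, and leaving out each library. The edgeR and DESeq2 fits were tested on simulated data.

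The genes, lists and tests were chosen with earlier results of these data known. Named with values are *xpo-1*, genes past the threshold in at least 2 heat comparisons, the 10 largest per direction in each heat comparison and the 5 largest in each other comparison, and list genes past it in all 3 genotypes. Other values of the 40 genes are given to account for each of them.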

Additional observations from a re-analysis of the deposited data

Results flagged for a closer look

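Within the groups of 4 libraries, 7 of 200 gene and group pairs held 1 library far from the other 3, judged by its gap to the nearest of them over the range of the group. Chance flags about 1 in 20 such groups, and no explanation was tested. *imb-1* was at 54.8 CPM and *npp-13* at 56.1 CPM in rescued replicate 1 at 20°C, against 39.7 to 41.8 and 43.4 to 44.4 CPM in the other 3 libraries. *npp-12* was at 101.9 CPM in rescued replicate 4 at 20°C, with the others at 136.6 to 140.3 CPM. *ran-4* was at 103.7 CPM and *ran-5* at 120 CPM in rescued replicate 3 at 37°C, with the others at 144.7 to 149.9 and 154.1 to 156 CPM. *xpo-3* was at 59.0 CPM in rescued replicate 2 at 37°C, with the others at 71.5 to 73.7 CPM. *npp-1* was at 134.7 CPM in wildtype replicate 4 at 37°C, with the others at 107.3 to 109.7 CPM.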

How the results depend on the processing

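No gene called in the report reversed its direction under any alternative. All alternatives kept 7 of 18 heat calls in wildtype animals (*npp-9*, *npp-10*, *ima-2*, *ima-3*, *imb-3*, *xpo-2* and *ran-1*), 13 of 20 in mutants and 1 of 5 in rescued animals (*ima-3*). They kept 2 of 3 calls of rescued animals against mutants at 20°C, 3 of 9 at 37°C and 5 of 17 against wildtype animals at 37°C. Where a group keeps 1 library under the shallower libraries, that library is assumed to vary like the others. Depth limits *npp-26* most, whose lowest count was 0.

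With heat in wildtype animals, depth class as a covariate left 7 genes higher and 1 lower, beside 5.96% and 4.05% of all genes. In that fit the heat effect rests on replicate 1 at 37°C alone, since the other heated libraries were deeper and no control library was. No filter left 1 lower, beside 8.27%. Scaling by library size left 7 lower with heat among mutants, beside 23.3% of all genes. Among rescued animals it left 1 higher and 2 lower, beside 9.61% and 11.3%. For rescued animals there were 2 higher and 2 lower in a fit of all 6 groups, 2 higher with the depth class, 7 without a filter, 1 in the shallower libraries and 9 with upper quartile factors. Without a filter and with upper quartile factors, the share that was higher lay above that of all genes in the same fit. In the fit of all 6 groups, with the depth class and in the shallower libraries it lay below. Mutants against wildtype animals gave 1 gene at 20°C in a fit of all groups and by DESeq2, beside 3.04% and 3.30% of all genes. Rescued animals against mutants gave 5 at 20°C in the shallower libraries and with upper quartile factors, and at 37°C 3 and 5. In each of these fits the share of the nuclear pore and transport genes was below that of all genes. Rescued against wildtype animals gave 4 at 20°C in a fit of all groups (23.4% of all genes) and 10 at 37°C by library size (41.8%). Their interaction gave 1 by DESeq2, with the depth class and with upper quartile factors, beside 7.55%, 6.05% and 2.53% of all genes. Without a filter it gave 2, beside 2.35%.

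Leaving out each library gave 6 to 17 genes higher and 1 to 2 lower with heat in wildtype animals. Of all genes, 9.96% to 14.4% were higher and 12.3% to 15.3% lower. Among mutants it gave 12 to 17 and 2 to 6, beside 17.1% to 20.6% and 13.5% to 16.6%. For rescued animals it gave 1 to 12 and 1 to 4, beside 8.06% to 15.7% and 5.12% to 10.4%. It gave 2 to 6 and 3 to 7 for rescued animals against mutants at 20°C and 37°C, 0 to 6 and 12 to 20 against wildtype animals, and 0 to 5 for the interaction of rescued and wildtype animals. The share of all genes moved in these fits too. The share of the nuclear pore and transport genes was below it in every fit against mutants and against wildtype animals at 20°C. Against wildtype animals at 37°C it was above in some fits and below in others. For the interaction it was above only without rescued replicate 4 at 20°C. For mutants against wildtype animals, and for the other interactions, leaving out each library gave 0, beside at most 1.47% of all genes.

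Same-numbered libraries deviated together with r over 0.1 for every pair in no comparison. Single pairs reached r = 0.58, and the mean per comparison ran from -2e-04 to 0.255. With so few pairs, whether the numbers pair the samples is not settled. With the replicate number as a block, heat gave 15 higher and 2 lower in wildtype animals, 18 and 5 among mutants, 7 and 1 among rescued animals, and 1 gene passed the interaction of rescued and wildtype animals. In each genotype the share that was higher with heat lay above that of all genes in this fit, and the share that was lower lay below. The share of all genes called in either direction moved too, up in mutants and rescued animals and down in wildtype animals. The log2 fold change of *xpo-1* with heat passed no test. In wildtype animals it turned to 0.25 with the depth class and 0.23 in the shallower libraries. Both wildtype values set replicate 1 at 37°C alone against the control libraries, so they are not separate checks. In mutants the log2 fold change of *xpo-1* turned to -0.10 by library size and -0.071 in the shallower libraries. Leaving out each library, it ran between -0.21 and 0.17 in wildtype animals and between -0.12 and 0.23 in mutants, and the difference in mean log2 CPM between -0.24 and 0.13 and between -0.066 and 0.24. The cause of these changes was not tested.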
